A study of Mus musculus with 8 samples.

Results

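The genes described here carry out or control the burning of fatty acids in the liver. They are 34 genes of mitochondrial and peroxisomal fatty acid oxidation, ketone body metabolism and omega oxidation, together with targets of the nuclear receptor PPAR-alpha, taken by symbol from 55421 transcripts in the deposited tables. Each of the 34 symbols had a single transcript, and all 34 passed the filter on low counts that left 14506 transcripts for testing. The livers came from 8 male C57BL/6J mice, all fed a diet with 45% of its calories as fat. Control mice were gavaged with the vehicle, PBS, and the others with sudachitin, a polymethoxylated flavone, at 100 mg per kg, on alternate days between ZT 8 and 10, where zeitgeber time (ZT) counts hours from lights on. At 30 weeks of age livers were collected at ZT6, in the light phase, or ZT18, in the dark phase, and 2 mice in each of the 4 groups were sequenced. Whole liver was used, so the measurement is a bulk level, in which fewer cells of a type and less RNA per cell cannot be told apart.

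Long-chain fatty acids are activated to acyl-CoA, carried into mitochondria as carnitine esters and shortened in a repeating spiral of dehydrogenation, hydration, dehydrogenation and thiolysis, while peroxisomes shorten very long and branched chains. The acetyl-CoA that results enters the citric acid cycle or, in the fasting liver, becomes ketone bodies. PPAR-alpha is the fatty acid sensor that activates many of these genes in hepatocytes, and fasting and feeding move it through the day.

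Counts within exons came to 13914116 to 17759630.5 per library. Hepatocyte markers dominated every library, with a sum of 82295 to 101407 CPM (counts relative to library size, scaled with TMM factors) over 6 markers, and the markers of T and B cells summed to 2.27 to 5.05 CPM. The library of control ZT18 replicate 1 stood apart from the others. Its 16 genes with male-biased liver expression summed to 7242 CPM, against 16239 to 25606 CPM in the other 7 libraries. Its 9 female-biased genes summed to 317 CPM, against 0.881 to 27.1 CPM. Of these 9 genes 7 were under 1 CPM in every library and 1 passed the filter on low counts, so the high sum is not a level of the whole list. Control ZT18 replicate 2 had the highest share of counts on transcripts of the mitochondrial genome, 8.57%, against 5.70% to 7.05% in the other 7 libraries. The part of either difference in the results was not tested, and the main values are given also without control ZT18 replicate 1.

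Across the 34 genes, levels per length covered a wide range. The highest mean FPKM (counts relative to exon length and library size) was 450.0 for Acaa1b, the peroxisomal thiolase, followed by 257 for Acaa2, the mitochondrial thiolase, 139 for Etfb, a subunit of the electron transfer flavoprotein, and 137 for Acsl1, the main long-chain acyl-CoA synthetase of liver. The neighbours Etfb and Acsl1 did not differ beyond their spread, with library ranges of 125 to 147 FPKM and 99.3 to 215 FPKM. The lowest were Acot3 at 3.91 FPKM, Pdk4 at 2.99 FPKM and Acot2 at 2.41 FPKM. These 3 genes encode a peroxisomal thioesterase, a kinase that shuts off pyruvate dehydrogenase and a mitochondrial thioesterase, and their library ranges overlapped.

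Between the times of day 4 of these genes rose at ZT18. In the comparison of ZT18 with ZT6 over both treatments, from an additive model of treatment and time, 4 of the 34 genes were higher and 0 were lower with an adjusted p under 0.05 (edgeR's quasi-likelihood test, Benjamini-Hochberg adjustment over all 14506 transcripts). Over all tested transcripts 3.68% were called in this comparison, 1.86% were called higher and 1.82% lower. An unadjusted p under 0.05 was found for 13 of the 34, and for 20.4% of all. The 4 genes were Acsl1, Slc25a20, Acot1 and Pdk4. The fitted difference was above 0 for 30 of the 34 genes, with a median of 0.22 (log2), against 52.7% and a median of 0.019 over all tested transcripts. Without control ZT18 replicate 1 the median was 0.046, with 19 genes above 0, and without control ZT18 replicate 2 it was 0.34. All 4 libraries at ZT18 lay above all 4 at ZT6 for 6 of the 34 genes, which are the 4 called genes, Decr2 and Acaa1b, and below them for Crot alone. The same was true, upward and downward, of 5.99% and 7.02% of all tested transcripts.

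The regions in front of the 4 genes that passed the test are shown because they are where control by a nuclear receptor or clock factor would be looked for. Each is the 250 bases before the start of the gene, 5′ to 3′ on the gene's strand, from RefSeq on GRCm38.p6. For Acsl1 it is chr8:46470787-46471036 (+), for Slc25a20 chr9:108661886-108662135 (+), for Acot1 chr12:84009252-84009501 (+) and for Pdk4 chr6:5496279-5496528 (-). The RefSeq start lay 0, 38, 12 and 31 bases from the start of the transcript counted in the deposited tables. Capitals mark the GC box GGGCGG and the CCAAT box, on either strand, general promoter elements that were added to the search after the sequences had been seen.
Acsl1: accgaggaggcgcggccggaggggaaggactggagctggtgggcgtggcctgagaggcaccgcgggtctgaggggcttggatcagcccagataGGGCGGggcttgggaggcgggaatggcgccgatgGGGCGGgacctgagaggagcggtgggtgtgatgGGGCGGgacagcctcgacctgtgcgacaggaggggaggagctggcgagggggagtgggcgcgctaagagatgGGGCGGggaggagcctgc
Slc25a20: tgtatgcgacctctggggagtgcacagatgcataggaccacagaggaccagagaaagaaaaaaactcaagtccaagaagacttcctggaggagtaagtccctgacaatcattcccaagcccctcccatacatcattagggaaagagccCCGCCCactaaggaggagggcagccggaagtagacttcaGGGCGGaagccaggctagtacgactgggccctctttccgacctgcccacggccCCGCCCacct
Acot1: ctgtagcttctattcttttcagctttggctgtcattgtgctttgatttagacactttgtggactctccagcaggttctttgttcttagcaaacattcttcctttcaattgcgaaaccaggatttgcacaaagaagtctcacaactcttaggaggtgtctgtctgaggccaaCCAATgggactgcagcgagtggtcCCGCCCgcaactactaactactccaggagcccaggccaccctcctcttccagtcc
Pdk4: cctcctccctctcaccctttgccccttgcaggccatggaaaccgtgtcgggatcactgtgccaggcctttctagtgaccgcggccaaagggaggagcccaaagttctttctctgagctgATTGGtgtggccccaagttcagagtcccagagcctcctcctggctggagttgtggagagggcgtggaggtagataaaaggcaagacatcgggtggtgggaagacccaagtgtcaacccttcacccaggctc

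RefSeq windows were at hand for 27 of the 34 genes. Acaa2, Crat, Decr1, Cyp4a10, Cyp4a14, Vnn1 and Angptl4 had none and were not searched, so several of the PPAR-alpha targets are in no count below. The direct repeat that PPAR-alpha binds with its partner RXR, named DR1 and searched on both strands as the half-site given next, 1 free base and the half-site again, was in 0 of the 27 windows exactly and in 0 with up to 1 mismatch, against 0.0335% and 0.484% of the 32851 windows of all genes. Its half-site AGGTCA was in 4 windows (14.8%, against 14.0% of all), those of Cpt1a, Acadvl, Acadm and Acot4. The E-box of the clock, CACGTG, was in 1, that of Acot4 (3.7%, against 6.02%), and the D-box TTATGTAA in 0 (against 0.819%). The GC box was in 16 windows (59.3%, against 32.7%) and the CCAAT box in 15 (55.6%, against 33.8%). With DR1 in so few windows of all genes, its absence from 27 does not tell these genes from the rest. A match describes the letters of a short window, and elements outside it were not searched.

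**Figure D1:**
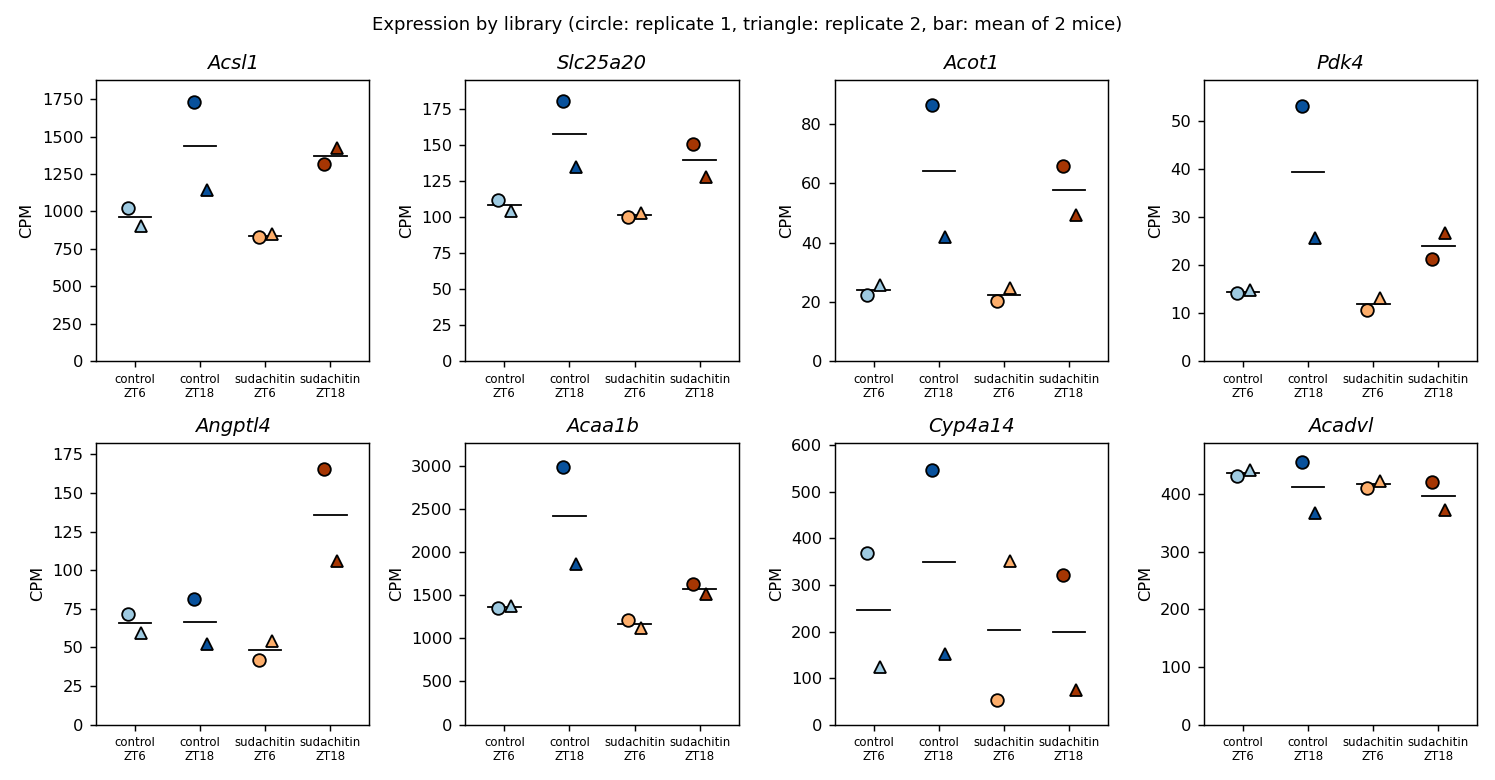
Expression of 8 genes by library, in TMM-scaled CPM, with the 4 groups on the horizontal axis, a circle for replicate 1, a triangle for replicate 2 and a bar for the mean of the 2 mice. Acsl1, Slc25a20, Acot1 and Pdk4 are higher in all 4 ZT18 livers than in any ZT6 liver, Angptl4 is highest in the 2 sudachitin ZT18 livers, the mice of a group differ widely in Cyp4a14, and Acadvl overlaps between the times.

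Among the 6 genes of fatty acid activation and the carnitine shuttle, 2 rose at ZT18. Acsl1 had CPM of 1021 and 903 in control ZT6 livers, 1728 and 1141 in control ZT18 livers, 829 and 849.8 in sudachitin ZT6 livers and 1315 and 1423 in sudachitin ZT18 livers. The ZT18 livers were above the ZT6 livers under both treatments, and the difference was 0.64 ± 0.13 (log2, SE; adjusted p = 0.0319, edgeR). Slc25a20, the carnitine-acylcarnitine translocase that exchanges acylcarnitine for carnitine across the inner membrane, had CPM of 112 and 105 in control ZT6 livers, 180.4 and 135 in control ZT18 livers, 100.3 and 103 in sudachitin ZT6 livers and 151 and 128 in sudachitin ZT18 livers. Its difference was 0.50 ± 0.11 (adjusted p = 0.0374, edgeR), again with no overlap between times. Without control ZT18 replicate 1 the difference was 0.51 for Acsl1 and 0.39 for Slc25a20 (log2). Each of the 2 differences was above 0 in all 15 alternative analyses, but its adjusted p stayed under 0.05 in 6 of them for Acsl1 and in 7 for Slc25a20. Both lost the call when either ZT6 control, either sudachitin ZT6 liver or sudachitin ZT18 replicate 1 was left out, and Acsl1 also without sudachitin ZT18 replicate 2.

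Cpt1a, the malonyl-CoA-sensitive enzyme that makes the carnitine ester and is held to set the rate of entry, did not pass the test. It had CPM of 416 and 318 in control ZT6 livers, 535 and 299 in control ZT18 livers, 279.7 and 313 in sudachitin ZT6 livers and 385 and 384 in sudachitin ZT18 livers, and the control ZT18 libraries enclosed both control ZT6 libraries. Its time difference was 0.28 ± 0.17 (adjusted p = 0.393, edgeR). Cpt2, which restores the acyl-CoA inside mitochondria, differed by 0.06 ± 0.09 (log2). Crat, which handles short chains, differed by 0.49 ± 0.19 (adjusted p = 0.185, edgeR), and by 0.25 without control ZT18 replicate 1. Crot, the peroxisomal octanoyltransferase that passes shortened chains on to mitochondria, was the member with the largest negative difference, -0.53 ± 0.18 (adjusted p = 0.138, edgeR). Its CPM was 475 and 509 in control ZT6 livers, 437 and 241 in control ZT18 livers, 513 and 625 in sudachitin ZT6 livers and 454 and 334 in sudachitin ZT18 livers, so that every ZT18 liver was below every ZT6 liver. Without control ZT18 replicate 1 the difference of Crot was -0.73 (log2). With all libraries DESeq2 and edgeR with no filter called it lower, while other scaling factors, the replicate block and limma did not.

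In the core of the mitochondrial spiral no gene passed the test between the times. Its 8 genes are the chain-length acyl-CoA dehydrogenases Acadvl, Acadl, Acadm and Acads, the trifunctional protein subunits Hadha and Hadhb, the short-chain hydroxyacyl dehydrogenase Hadh and the thiolase Acaa2. The 8 time differences lay between -0.08 and 0.18 (log2), the 2 highest being Hadh at 0.18 and Acadl at 0.16, and 0 of the 8 had an unadjusted p under 0.05. Acadvl, for very long chains, had CPM of 431 and 442 in control ZT6 livers, 456 and 367 in control ZT18 livers, 410.4 and 422 in sudachitin ZT6 livers and 419.9 and 372 in sudachitin ZT18 livers, and the times overlapped. The electron transfer flavoprotein, which takes the electrons of the first step to the respiratory chain, had no called gene either. Etfa, Etfb and the oxidoreductase Etfdh differed by 0.01, 0.00013 and -0.18 (log2). Of the Etfb sequence 66.3% is shared with Gm45233, and of Hadhb 57.6% with Gm13910, in stretches of 75 bases, so the counts of these genes depend on how shared reads were placed. Acadvl overlaps Dvl2 on the opposite strand over 45.0% of its exon bases, and the libraries carried no strand.

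Enzymes that prepare unsaturated chains and those of peroxisomes had median time differences of 0.17 and 0.43 (log2), against 0.05 in the mitochondrial core, and none passed the test. These medians were 0.08, 0.22 and -0.02 without control ZT18 replicate 1. Of the 4 auxiliary genes, the isomerases Eci1 and Eci2 and the reductases Decr1 and Decr2, Decr2 of peroxisomes had the largest time difference, 0.36 ± 0.11 (adjusted p = 0.105, edgeR), with no overlap between times. The other 3 lay between 0.12 and 0.21 (log2). Acaa1b, the abundant peroxisomal thiolase, had CPM of 1346 and 1369.9 in control ZT6 livers, 2986 and 1862 in control ZT18 livers, 1210.3 and 1115 in sudachitin ZT6 livers and 1635 and 1516 in sudachitin ZT18 livers. Every ZT18 liver was above every ZT6 liver, and the difference was 0.64 ± 0.15 (adjusted p = 0.0545, edgeR), just over the threshold. The difference was 0.43 without control ZT18 replicate 1 and 0.73 without replicate 2. With all libraries DESeq2 and edgeR with no filter called Acaa1b higher, while other scaling factors, the replicate block and limma did not. Acaa1a, the close paralog with which Acaa1b shares 28.5% of its sequence, differed by 0.26 ± 0.14. Ehhadh, the peroxisomal bifunctional enzyme, had CPM of 294 and 251 in control ZT6 livers, 532 and 343 in control ZT18 livers, 223 and 275 in sudachitin ZT6 livers and 309.6 and 251 in sudachitin ZT18 livers. The high values were those of the control ZT18 livers, and the time difference of 0.43 ± 0.17 did not pass (adjusted p = 0.202, edgeR) and was 0.22 without control ZT18 replicate 1.

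Bdh1, the dehydrogenase that interconverts acetoacetate and hydroxybutyrate, was the single ketone body enzyme of the set. It had CPM of 265 and 267 in control ZT6 livers, 329 and 166 in control ZT18 livers, 246 and 271 in sudachitin ZT6 livers and 149 and 178 in sudachitin ZT18 livers. The sudachitin ZT18 livers were below the sudachitin ZT6 livers, while the control ZT18 libraries lay on either side of the control ZT6 libraries. The time difference was -0.38 ± 0.20 over both treatments (adjusted p = 0.324, edgeR) and -0.66 ± 0.27 in sudachitin livers (adjusted p = 0.362). Without control ZT18 replicate 1 they were -0.68 and -0.68 (log2), and the difference in sudachitin livers was -0.66 without control ZT18 replicate 2. Control ZT18 libraries are not part of the sudachitin comparison and affect its p through the shared estimate of the spread. With all libraries edgeR with no filter called both differences lower, while DESeq2, limma and the replicate block called neither.

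The 4 acyl-CoA thioesterases, which release free fatty acid from acyl-CoA, had the largest time differences of any role, with a median of 1.51 (log2), and 1 of the 4 passed. The median was 0.98 without control ZT18 replicate 1. Acot1, Acot2, Acot3 and Acot4 lie side by side on chromosome 12 (mm10), from Acot2 at 83987861 to the end of Acot3 at 84060402, and encode a cytosolic, a mitochondrial and 2 peroxisomal enzymes. Acot1 had CPM of 22.3 and 25.8 in control ZT6 livers, 86.2 and 41.8 in control ZT18 livers, 20.2 and 24.6 in sudachitin ZT6 livers and 65.8 and 49.4 in sudachitin ZT18 livers. The ZT18 livers were all above the ZT6 livers, at 2.62 times their level by the fit. The difference was 1.39 ± 0.21 (log2; adjusted p = 0.0103, edgeR), and 1.13 without control ZT18 replicate 1. Acot1 passed in 14 of the 15 alternatives and whichever library was left out. Of its sequence 26.4% is shared with other genes, most of it with Acot2, which is expressed at a lower level.

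Acot2 differed by 1.63 ± 0.48 (adjusted p = 0.099), Acot3 by 1.95 ± 0.69 (adjusted p = 0.151) and Acot4 by 0.90 ± 0.31 (adjusted p = 0.144, edgeR), with wide errors. Acot3 had CPM of 13.2 and 4.77 in control ZT6 livers, 128 and 24.7 in control ZT18 livers, 5.47 and 15.7 in sudachitin ZT6 livers and 21.9 and 14.0 in sudachitin ZT18 livers. Acot4 had CPM of 73.5 and 47.5 in control ZT6 livers, 219 and 91.1 in control ZT18 livers, 47.4 and 69.9 in sudachitin ZT6 livers and 68.2 and 91.5 in sudachitin ZT18 livers. In both, control ZT18 replicate 1 was far above every other library, and the times overlapped. Without that library the differences were 0.91 for Acot2, 1.05 for Acot3 and 0.49 for Acot4. The mice of the control ZT18 group differed 5.18-fold in Acot3, the widest gap of any member in that group.

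Pdk4, which spares glucose by inhibiting pyruvate dehydrogenase, had CPM of 14.2 and 14.8 in control ZT6 livers, 53.2 and 25.7 in control ZT18 livers, 10.6 and 13.2 in sudachitin ZT6 livers and 21.3 and 26.6 in sudachitin ZT18 livers. The ZT18 livers were all above the ZT6 livers, at 2.35 times their level by the fit. The difference was 1.23 ± 0.22 (log2; adjusted p = 0.019, edgeR), and 0.92 without control ZT18 replicate 1. It passed in 10 of the 15 alternatives and lost the call when either ZT6 control or sudachitin ZT6 replicate 1 was left out. The other 2 targets in the set did not pass over both treatments. Vnn1, a pantetheinase, differed by 0.33 ± 0.28, and Angptl4, a secreted inhibitor of lipoprotein lipase, by 0.76 ± 0.31 (adjusted p = 0.207, edgeR).

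Cyp4a10 and Cyp4a14, the cytochrome P450 omega-hydroxylases that are textbook responders to PPAR-alpha, varied more between mice than between groups. Cyp4a14 had CPM of 369.5 and 123 in control ZT6 livers, 546 and 152 in control ZT18 livers, 53.5 and 351 in sudachitin ZT6 livers and 322 and 75.3 in sudachitin ZT18 livers. The mice of a group were 3.01-fold apart in control ZT6 livers, 6.57-fold in sudachitin ZT6 livers and 4.28-fold in sudachitin ZT18 livers, and all groups overlapped. Its time difference was 0.24 ± 0.67 and that of Cyp4a10 0.23 ± 0.33 (log2), and with errors of this size the data set no close limit on a change. Without control ZT18 replicate 1 the lower of the 2 differences was -0.30 and the higher -0.10 (log2). With no filter on low counts edgeR called Cyp4a14 lower under sudachitin at ZT18, and both genes lower over both times, while the reported fit called neither.

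**Figure D2:**
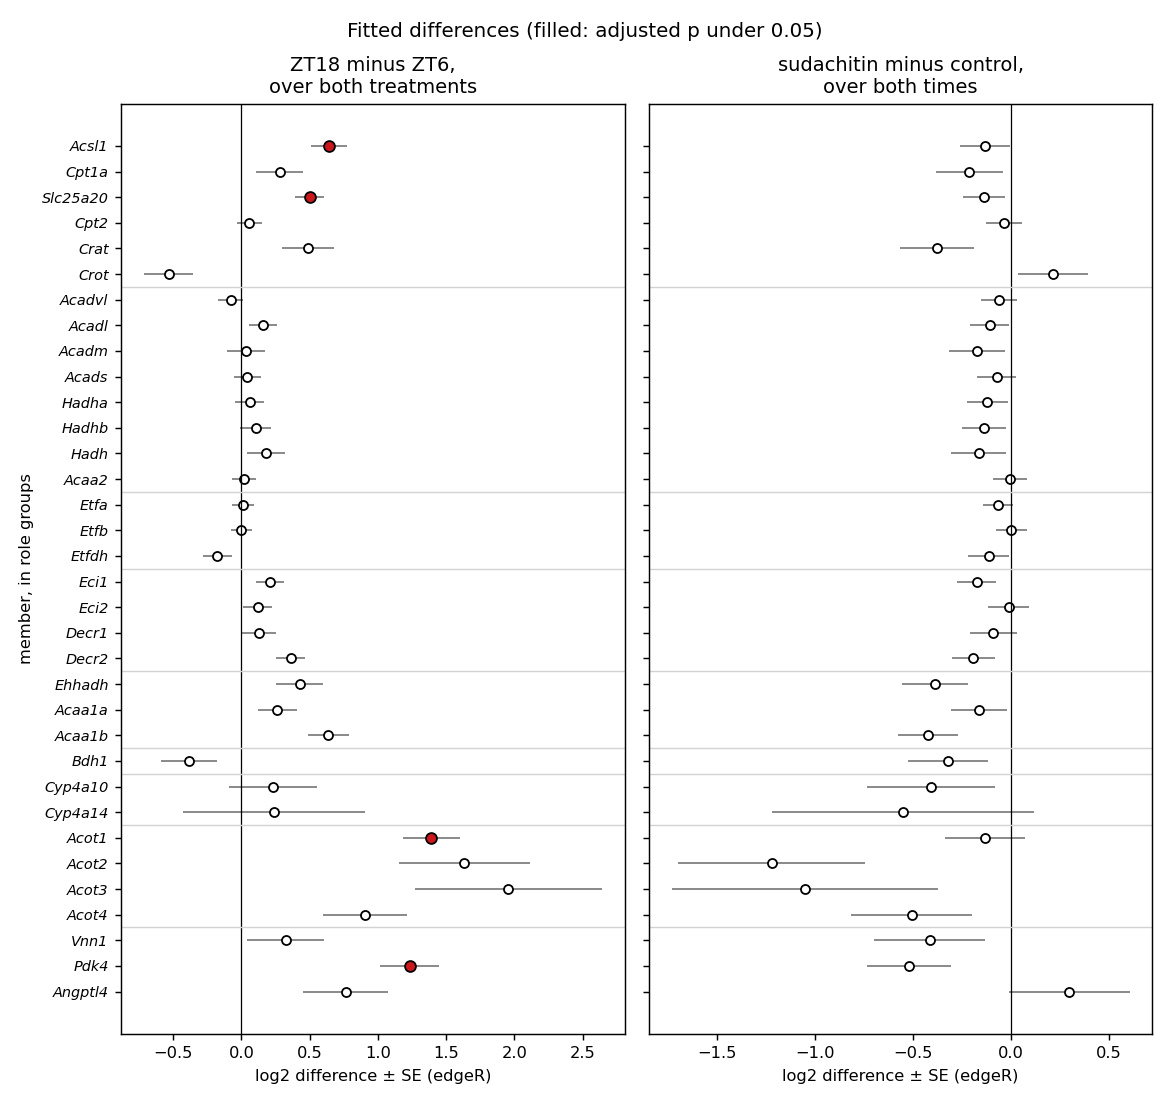
Fitted log2 differences of the 34 genes with their standard errors (edgeR), in role groups, for ZT18 minus ZT6 over both treatments on the left and sudachitin minus control over both times on the right. Filled points mark an adjusted p under 0.05, which is Acsl1, Slc25a20, Acot1 and Pdk4 on the left and no gene on the right.

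Within each treatment the time comparison rests on 2 mice against 2. In control livers 0 of the 34 genes passed edgeR's test (0.524% of all tested transcripts did), 11 had an unadjusted p under 0.05 (12.9% of all), DESeq2 called 3 and limma on log2(FPKM + 0.1) called 0. The smallest p-values were those of Pdk4, at 1.45 ± 0.30 (adjusted p = 0.103), Acot1, at 1.42 ± 0.31 (adjusted p = 0.117), and Acaa1b, at 0.84 ± 0.21 (adjusted p = 0.158, edgeR). In sudachitin livers 0 of the 34 passed (0.186% of all), 6 had an unadjusted p under 0.05 (12.6% of all), DESeq2 called 4 and limma 0. Here the smallest were Angptl4, at 2.82-fold with an SE of 0.27 on the log2 scale (adjusted p = 0.0806), Acot1, at 1.36 ± 0.31 (adjusted p = 0.136), and Acsl1, at 0.71 ± 0.19 (adjusted p = 0.192, edgeR). Genes whose ZT18 libraries were both above the ZT6 libraries numbered 12 in control livers, against 21.3% of all tested transcripts, and 14 in sudachitin livers, against 23.5%. Genes with both ZT18 libraries below numbered 2 in each, against 21.1% and 22.3%.

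The time difference in control livers depended on 1 liver. Control ZT18 replicate 1 was the highest of the 8 libraries in 27 of the 34 genes (79.4%), as it was in 19.7% of all tested transcripts. The mice of that group differed by more than 1.5-fold in 19 of the 34 genes, with a median ratio of 1.56, against 1.21 over all tested transcripts. In the other groups 3 to 6 genes differed that much. Leaving out either library of that group leaves 1 control ZT18 liver, so only the sizes of the differences are given here. Without replicate 1 the median time difference of the 34 genes in control livers was -0.11 (log2), with 12 above 0. Without replicate 2 it was 0.48, with 31 above 0. With all libraries it was 0.20, with 28 above 0 (52.8% of all tested transcripts). In sudachitin livers the median was 0.17 with all libraries. It was 0.08 and 0.22 without sudachitin ZT6 replicate 1 and replicate 2, and 0.05 and 0.28 without sudachitin ZT18 replicate 1 and replicate 2. Control ZT18 replicate 1 is also the library with the low male-biased and high female-biased sums given above. Over 5 adipocyte marker genes it held 20.5 CPM, nearly all from Cidea. The sum was 16.5 CPM in sudachitin ZT18 replicate 1 and at most 1.18 CPM elsewhere. Of these markers 4 were under 1 CPM in every library, so the high sums are levels of Cidea and not of the list. The part of these differences in the result was not tested.

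**Figure D3:**
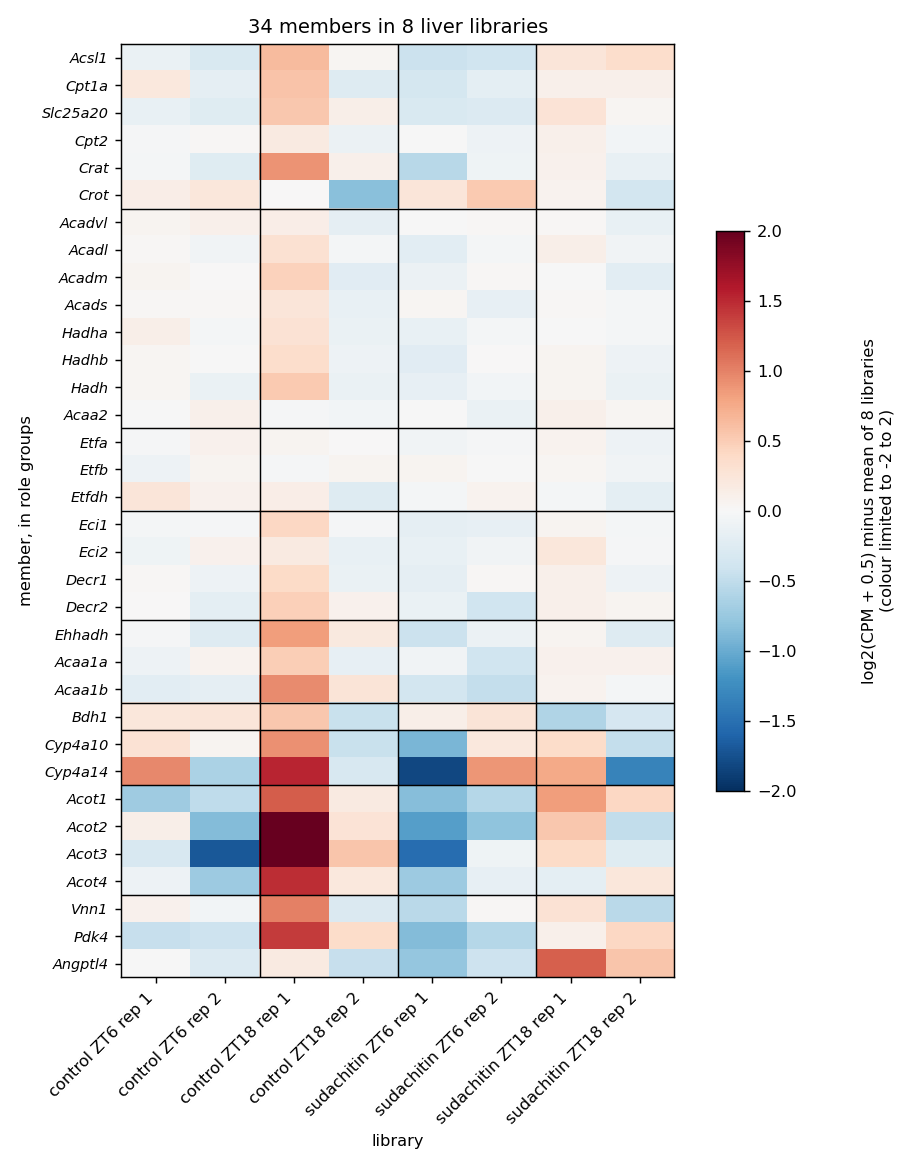
Log2(CPM + 0.5) of the 34 genes in each of the 8 libraries, minus the gene's mean over the libraries, with the genes in role groups from top to bottom and the libraries from left to right. The column of control ZT18 replicate 1 is the warmest, being the highest library in 27 genes, and that of sudachitin ZT6 replicate 1 is the lowest library in 18.

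Sudachitin against control gave small differences of mostly one sign at ZT6, and none passed. At that time 0 of the 34 genes were called (0.0% of all tested transcripts), 0 had an unadjusted p under 0.05 (2.12% of all) and DESeq2 and limma called 0. The fitted difference was below 0 for 31 of the 34, with a median of -0.12 (log2), against 51.2% and -0.005 over all tested transcripts. The smallest p-values were those of Angptl4, at -0.45 ± 0.27 (unadjusted p = 0.135), Cpt1a, at -0.31 ± 0.25 (unadjusted p = 0.249), and Acaa1b, at -0.22 ± 0.20 (unadjusted p = 0.304, edgeR). Both sudachitin livers were below both control livers in 11 genes, against 16.3% of all tested transcripts, and above them in Crot alone, against 15.4%. Sudachitin ZT6 replicate 1 was the lowest of the 8 libraries in 18 of the 34 genes (52.9%, against 10.5% of all tested transcripts). Without it the median was -0.04, with 20 genes below 0. The 8 markers of liver macrophages had fitted differences of 0.33 to 1.43 (log2) at ZT6, 8 of 8 above 0, 4 of them at an unadjusted p under 0.05 and 0 called by edgeR. They summed to 133 and 209.8 CPM in sudachitin livers and 94.9 and 115 CPM in control livers, and their part in the result was not tested.

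At ZT18 0 of the 34 genes were called between sudachitin and control livers (0.0138% of all), 7 had an unadjusted p under 0.05 (6.51% of all), DESeq2 called 1, Angptl4, and limma 0. The median difference was -0.16 (log2), with 30 genes below 0 (50.4% of all tested transcripts). Angptl4 differed by 1.02 ± 0.27 (adjusted p = 0.633), Acaa1b by -0.62 ± 0.21 (adjusted p = 0.708) and Ehhadh by -0.64 ± 0.22 (adjusted p = 0.721, edgeR). The sudachitin livers were below both controls in Crat, Ehhadh, Acaa1b and Acot3 and above them in Acaa2 and Angptl4, against 15.5% and 15.3% of all tested transcripts. The sign of the median followed the control libraries. Without control ZT18 replicate 1 it was 0.11, with 23 genes above 0, and without replicate 2 it was -0.40, with 31 below 0. Each of these fits holds 1 control ZT18 liver. Over both times 0 genes were called (0.0207% of all), 4 had an unadjusted p under 0.05 (4.41% of all) and DESeq2 called 0. The libraries of the treatments overlapped in all 34 genes over both times, as they did in all but 0.958% (higher) and 0.869% (lower) of tested transcripts. The median over both times was -0.15, and -0.03 without control ZT18 replicate 1.

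**Figure D4:**
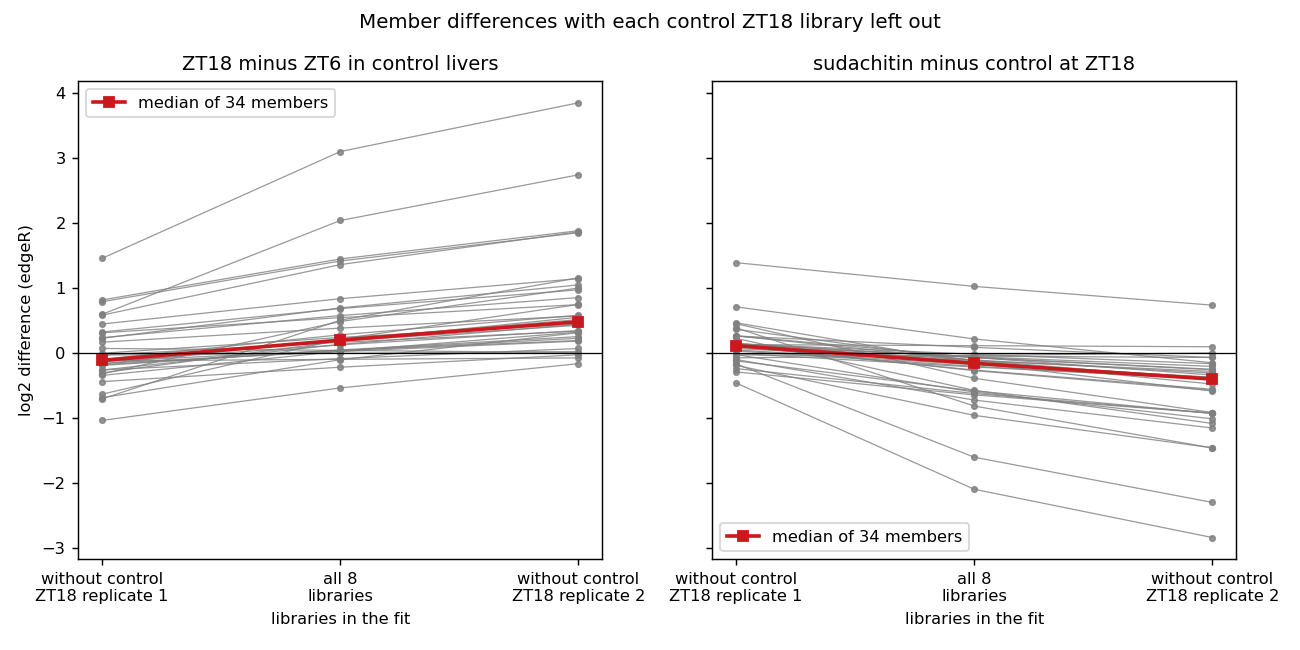
Log2 differences (edgeR) of the 34 genes, 1 grey line a gene and the median in red, with all 8 libraries and with either control ZT18 library left out. For ZT18 minus ZT6 in control livers (left) the median runs from -0.11 through 0.20 to 0.48, and for sudachitin minus control at ZT18 (right) from 0.11 through -0.16 to -0.40.

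Angptl4 was the one member whose time course differed between treatments at an unadjusted p under 0.05. It had CPM of 71.8 and 59.2 in control ZT6 livers, 81.4 and 51.9 in control ZT18 livers, 42.1 and 54.1 in sudachitin ZT6 livers and 166 and 106 in sudachitin ZT18 livers. The 2 sudachitin ZT18 livers were the highest of all 8, while the control ZT18 livers enclosed the control ZT6 livers. The interaction of treatment and time was 1.47 ± 0.38 (log2; unadjusted p = 0.0042), and its adjusted p was 0.998 with edgeR and 0.049 with DESeq2. Within sudachitin livers the ZT18 level of Angptl4 was 2.82-fold the ZT6 level, which did not pass with all libraries (adjusted p = 0.0806, edgeR). Control ZT18 libraries are not part of this comparison and affect its p through the shared estimate of the spread. Leaving one of them out also leaves 1 liver in that group, so calls from those fits are not read for Angptl4. The next smallest p-values of the interaction were those of Acot3, at -2.33 ± 1.10 (unadjusted p = 0.0657), and Acot4, at -0.91 ± 0.55 (unadjusted p = 0.135, edgeR), for which the high control ZT18 replicate 1 set the size: without it they were -0.70 and -0.15. Of the 34 genes 0 passed for the interaction (0.0% of all), and 1 had an unadjusted p under 0.05 (3.78% of all).

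Other genes of the pathway, 89 symbols in 7 lists of which 87 were tested, were read in the same comparisons. At ZT18 over both treatments 6 of the 87 rose and 0 fell, where 1.86% of all tested transcripts were called higher. In peroxisomes these were Abcd3, an importer of acyl-CoA (0.39 ± 0.08, adjusted p = 0.0374) and Pex11a, which drives peroxisome division (1.24 ± 0.21, adjusted p = 0.0164, edgeR), of 15 genes tested. Acsl4, a synthetase that prefers arachidonate, rose by 0.57 ± 0.11 (adjusted p = 0.0296), 1 of 15 genes of uptake and activation. Plin5, a lipid droplet coat protein, rose by 0.57 ± 0.12 (adjusted p = 0.0349) and G0s2, the inhibitor of the lipase ATGL, by 1.20 ± 0.12 (adjusted p = 0.0018, edgeR), 2 of 18 further targets. All 6 kept their direction in the 15 alternatives. The call was kept in 15 for G0s2, 10 for Pex11a, 7 for Acsl4, 7 for Plin5, 6 for the ketone body exporter Slc16a6 and 4 for Abcd3.

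G0s2 had CPM of 155 and 136 in control ZT6 livers, 283 and 327 in control ZT18 livers, 89.6 and 111 in sudachitin ZT6 livers and 229.5 and 276 in sudachitin ZT18 livers. It was the 1 gene of the 87 that also passed within control livers (adjusted p = 0.0363) and within sudachitin livers (adjusted p = 0.0261, edgeR). Among 5 further genes of ketone body metabolism Slc16a6 rose by 0.61 ± 0.13 (adjusted p = 0.0359, edgeR). None of the 14 further mitochondrial genes tested and none of the 10 of omega oxidation passed. Ppara itself differed by 0.04 ± 0.18 between the times, with CPM of 99.4 and 87.0 in control ZT6 livers, 108 and 69.2 in control ZT18 livers, 83.0 and 95.3 in sudachitin ZT6 livers and 76.4 and 122 in sudachitin ZT18 livers, and none of the 10 genes of the receptor, its partners and coactivators passed.

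In the treatment comparisons 0 of the 87 were called by edgeR, at ZT6, at ZT18 or over both times, where 4, 13 and 4 had an unadjusted p under 0.05, against 2.12%, 6.51% and 4.41% of all tested transcripts. At ZT6 the smallest p-values were those of G0s2, at -0.53 ± 0.16 (unadjusted p = 0.0099), and Cyp4a12a, a male-biased omega-hydroxylase, at -1.51 ± 0.46 (unadjusted p = 0.010, edgeR). At ZT18 the smallest was that of Acsl3, a synthetase of lipid droplets, at -0.62 ± 0.15 (unadjusted p = 0.0031, edgeR).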

How the data were processed

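Liver RNA was sequenced from 2 mice in each of 4 groups, with groups and replicate numbers taken from the sample titles. Per the labels' protocols, poly(A) libraries without strand information were read as 150-base pairs. Trimmomatic 0.39, STAR 2.7.2a and HOMER, whose version was not given, are named in the submitters' processing notes. Per the file headers, the authors deposited estimated counts per transcript's exons, which are raw and come in steps of 0.5, and FPKM, the count per exon length and library total, for transcripts of mm10. The sources used here do not say how reads with several positions were counted. Rounding to whole numbers took 0.5 up.

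Tests used edgeR 4.0.16 in R 4.3.3 (TMM factors, default filter by group, quasi-likelihood F test) over all 8 libraries. A model of 4 group means gave the comparisons within times and treatments and the interaction, and an additive model gave the time effect over both treatments and the treatment effect over both times. The SE is the log2 difference divided by the square root of F. P-values were adjusted by Benjamini-Hochberg over 14506 transcripts, with a threshold of 0.05. The scripts were tested on simulated data. Alternatives were DESeq2 1.42.0, other scaling factors, no filter, only the groups compared, a replicate block, limma 3.58.1 on log2(FPKM + 0.1) and log2(FPKM + 1), and leaving out each library.

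The 34 genes and the lists of other genes and markers were chosen with earlier results of these data known. Per-library values are given for each of the 34 called in any comparison and for the 3 with the smallest p in each comparison within a time or treatment and in the interaction. From the other lists up to 3 genes with the smallest p are named in the time effect and in the treatment comparisons. Crot, Bdh1, Acadvl, Cyp4a14, Acaa2, Ppara, Cd36 and Abcd2 were given values per library after their values were seen. Some genes of the pathway are not reported here and are in no count of the other lists. Cell type markers were summed per library. Promoter windows came from RefSeq (GRCm38.p6), and shared sequence and exon overlaps from GENCODE on GRCm38.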

Additional observations from a re-analysis of the deposited data

Results flagged for a closer look

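Angptl4 had time differences that diverged between the treatments, with an interaction of 1.47 (log2; unadjusted p = 0.0042, edgeR) that did not pass after adjustment. ZT18 livers were 2.82-fold higher than ZT6 livers under sudachitin and 1.02-fold under control, and the log2 difference between treatments was 1.02 at ZT18 and -0.45 at ZT6. The libraries of the treatments did not overlap at either time. The same was true of 16.3% of all tested transcripts downward at ZT6 and of 15.3% upward at ZT18.

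Acaa2 is listed because its libraries lay apart in opposite directions. Sudachitin livers were below both controls at ZT6 and above both at ZT18. The ZT18 livers were below the ZT6 livers under control treatment and above them under sudachitin. Of all tested transcripts 16.3% lay apart downward between the treatments at ZT6 and 15.3% upward at ZT18. Between the times 21.1% lay apart downward in control livers and 23.5% upward in sudachitin livers. The share with opposite directions was not counted. At ZT6 the CPM of Acaa2 was 836 and 901 with vehicle and 831 and 764 with sudachitin. At ZT18 it was 819.9 and 804 with vehicle and 895 and 861 with sudachitin. The interaction was 0.24 (log2) and did not pass (unadjusted p = 0.205, adjusted p = 0.998, edgeR).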

How the results depend on the processing

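The directions of Acsl1, Slc25a20, Acot1 and Pdk4 between the times were the same in all 15 alternatives, but the calls were not. Of the 34 genes, 4 were called between the times over both treatments, against 2 with limma on log2(FPKM + 0.1), 1 on log2(FPKM + 1), 0 with that pseudocount of 0.1 and no filter, 14 by edgeR with no filter, 6 by DESeq2 (5 higher and Crot lower), and 1 to 7 with a library left out. The other counts of called genes were 0 in the reported analysis. DESeq2 gave 1 for treatment at ZT18, 3 for time in control livers, 4 for time in sudachitin livers and 1 for the interaction, and no filter gave 11, 10, 7 and 3 and, for treatment over both times, 7. Only the groups compared gave 1 for time in sudachitin livers. With a library left out the counts were 0 to 5 for treatment at ZT18, 0 to 10 for time in control livers and 0 to 5 for time in sudachitin livers. The cause was not tested.

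Among all transcripts, in the order treatment at ZT6, treatment at ZT18, time in control, time in sudachitin, interaction, time over both and treatment over both, edgeR called 0, 2, 76, 27, 0, 534 and 3 transcripts. DESeq2 called 7, 43, 267, 268, 14, 928 and 15, and no filter 67, 488, 881, 861, 259, 1629 and 309. Only the groups compared gave 10, 0, 4 and 53 for the first 4. Limma gave 0 for treatment at ZT18 and 41 for time in control with either pseudocount, and without a filter 2, 18, 15, 37, 0, 141 and 1. Leaving out a library gave 0 to 3, 0 to 194, 5 to 323, 1 to 185, 0 to 13, 164 to 1048 and 2 to 6. Without control ZT18 replicate 1 the sign turned in 11 of the 34 genes for time over both treatments, 16 for time in control livers, 19 for treatment at ZT18, 15 for the interaction and 8 for treatment over both times. None of the 4 called differences turned in any alternative. Of genes outside the 34, between the times Acat1, at -0.07, ranged from -0.16 to 0.024 with a library left out (positive without control ZT18 replicate 2), and Oxct1, at 0.08, from -0.087 (without control ZT18 replicate 1) to 0.19, with -0.071 without control ZT6 replicate 1.

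Replicate numbers were entered as a block. Same-numbered libraries had correlations of their deviations between -0.20 and 0.28. With 2 mice a group, each correlation compares the gap between the mice of 1 group with that of another. Whether the numbers pair the mice cannot be told from it. With the replicate block 4 of the 34 genes were called over both treatments and 0 elsewhere, and 1, 0 and 43 transcripts in all were called for treatment at ZT6, treatment at ZT18 and time in control. With 2 mice a group, a p that missed the threshold does not show that levels were alike.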

Other observations

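In many genes of the set the same mouse of a group was the higher one each time. This was noticed in the values and was not tested. Of the 2 mice of a group, the one with more Cyp4a14 was also the higher one in 4 of 4 groups for 17 of the 34 genes, Cyp4a14 itself counted, where 9.37% of all tested transcripts show it. These include Cpt1a, Acadl, Hadha, Ehhadh, Cyp4a10, Acot3 and Vnn1. The genes are not independent of each other, and the same 4 mice are the higher ones throughout. It held also for 2 genes outside the set, Cd36, a fatty acid transporter, and Abcd2, a peroxisomal importer of very long chains. These 2 were picked after their values were seen, and how many of the other pathway genes show the pattern or break it was not counted. Cd36 had CPM of 61.4 and 42.0 in control ZT6 livers, 262 and 60.2 in control ZT18 livers, 30.1 and 59.3 in sudachitin ZT6 livers and 81.3 and 26.0 in sudachitin ZT18 livers. Abcd2 had CPM of 27.3 and 12.1 in control ZT6 livers, 51.7 and 14.3 in control ZT18 livers, 10.6 and 30.1 in sudachitin ZT6 livers and 12.3 and 5.93 in sudachitin ZT18 livers. Both show a gap between the mice of each group, as Cyp4a14 does.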
